A study of Homo sapiens with 4 samples.

Results

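PDZ domains are protein modules that bind the carboxyl-terminal tails of membrane proteins, and the 53 genes described here encode the cell's own proteins that carry such a domain in scaffolds of cell polarity, membrane trafficking, the actin cytoskeleton and signaling. They were taken as a list of 53 gene symbols. The list used no measured value as a rule, but earlier results of these data were known when it was chosen. All 53 were among the 24424 symbols in the count files. Of these 24424 symbols, 5530 had no count in any library. RNA was sequenced from BEAS-2B, a virus-immortalized line from human bronchial epithelium, with 4 conditions and 1 library for each. The Control library came from untreated cells and the LPS library from cells given lipopolysaccharide (LPS), the endotoxin of gram-negative bacteria, for 2 hr. The WT PDZ+LPS and mut PDZ+LPS libraries came from cells kept with a peptide for 24 hr before the same 2 hr of LPS. The WT PDZ peptide was built from the first PDZ domain of zonula occludens-1 (ZO-1, encoded by TJP1) and joined to a cell-penetrating TAT sequence. In the mut PDZ peptide a pair of adjacent glycines was replaced by alanines. All cells carried the wild type genotype. With 1 library each, a condition and its library cannot be told apart, no p-value can be given, and the 95% intervals below cover counting error only.

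Most PDZ domains hold the last residues of a partner's tail in a groove that begins with a loop of the pattern glycine, hydrophobic residue, glycine, hydrophobic residue. Proteins with several such domains bring receptors, adhesion molecules and enzymes together at one place on the membrane. In epithelial cells the Scribble, Crumbs and Par groups of PDZ proteins set the border between the apical and the basolateral side and position the tight junctions, where ZO-1 itself lies.

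The loop pattern was looked for in the longest reading frame of each gene's longest protein-coding transcript (GENCODE 29, build GRCh38), as glycine, then leucine, phenylalanine, isoleucine or tyrosine, then glycine, then phenylalanine, leucine, isoleucine or valine. It was found in 24 of the 53 members (45.3%) and in 2145 of 19669 protein-coding genes (10.9%). A match describes letters and does not by itself mark a PDZ domain. The lack of a match does not mark its absence, since listed members such as SDCBP and DVL1 had none. The coding bases around the first match are shown for members whose counts are described below, 5′ to 3′ on the coding strand, with the 4 loop codons in capitals. LIN7A, LIN7B and LIN7C are shown because these close relatives differed widely in level. The other lines are members that were low in the mut PDZ+LPS library.
LIN7A, chromosome 12, minus strand, loop at codon 117: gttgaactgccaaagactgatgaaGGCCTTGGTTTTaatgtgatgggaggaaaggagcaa
LIN7B, chromosome 19, plus strand, loop at codon 102: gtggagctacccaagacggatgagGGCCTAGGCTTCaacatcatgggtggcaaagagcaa
LIN7C, chromosome 11, minus strand, loop at codon 102: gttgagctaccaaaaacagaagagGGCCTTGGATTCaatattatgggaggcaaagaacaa
PARD3, chromosome 10, minus strand, loop at codon 470: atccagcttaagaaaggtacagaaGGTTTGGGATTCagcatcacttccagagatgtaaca
MAGI3, chromosome 1, plus strand, loop at codon 419: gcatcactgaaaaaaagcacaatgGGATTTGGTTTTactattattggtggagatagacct
ARHGEF11, chromosome 1, minus strand, loop at codon 56: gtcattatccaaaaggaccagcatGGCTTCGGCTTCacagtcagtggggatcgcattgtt
ARHGEF12, chromosome 11, plus strand, loop at codon 81: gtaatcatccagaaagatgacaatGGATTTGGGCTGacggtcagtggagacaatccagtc
PTPN13, chromosome 4, plus strand, loop at codon 1103: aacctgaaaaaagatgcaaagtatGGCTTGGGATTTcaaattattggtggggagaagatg
PDZD2, chromosome 5, plus strand, loop at codon 343: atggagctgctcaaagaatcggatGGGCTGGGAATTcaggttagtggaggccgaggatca
Over these 60 bases LIN7B and LIN7C shared 49, LIN7A and LIN7C 47, LIN7A and LIN7B 45, and ARHGEF11 and ARHGEF12 37. For 22 of the 24 members the bases of the first loop match were compared, and all 22 spellings of its 4 codons differed.

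The 4 libraries held 24823347 counts without treatment, 25155647 with LPS alone, 23446600 with WT PDZ and 19682929 with mut PDZ, which was the shallowest. The 53 members took 0.304%, 0.302%, 0.299% and 0.282% of these counts. Counts were divided by geometric size factors to give normalized counts. Of 10 symbols on an LPS response list 9 were in the count files. All 9 were at least 2-fold higher in LPS than in Control, against 3.46% of all genes compared. Their median log2 fold change was 4.41. The list was written with earlier results of these data known. All 8 epithelial markers were expressed, with a summed level of 75617 to 107390 normalized counts in the 4 libraries, highest in mut PDZ+LPS. Leukocyte markers summed to 731 to 897 normalized counts with PTPRC at 0, fibroblast markers to 411 to 568 with COL3A1 and LUM at 0, and endothelial markers to 25.8 to 35.3. The part of these levels in the results on PDZ genes was not tested.

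BEAS-2B cells expressed nearly all PDZ genes on the list: 52 of the 53 had a count in every library, and for 48 the mean over the libraries reached 16 normalized counts. Of all 24424 symbols 13072 reached that mean. Of 98 further PDZ-domain genes, listed apart from the 53, 62 reached it and 16 had 0 counts in every library. The high share is therefore that of this list and not of PDZ genes in general. Levels were compared between genes as RPKM, here the counts scaled to the library total and to kilobases of the longest protein-coding transcript. On this scale PDLIM1, an adaptor of actin stress fibers, was the highest by its mean, at 193 RPKM without treatment, 186 with LPS alone, 159 with WT PDZ and 228 with mut PDZ. SDCBP, known as syntenin, which links syndecan tails to endosomes and exosomes, came next at 53.8 RPKM without treatment, 78.9 with LPS alone, 72.4 with WT PDZ and 70.1 with mut PDZ. These were followed by GIPC1, an endocytic adaptor of myosin VI, TAX1BP3, a protein made of little more than 1 PDZ domain, and PDLIM7, a further actin adaptor, with mean levels of 59.6, 46.6 and 45.3 RPKM. TAX1BP3 shares exons with a readthrough transcript on its own strand, and PDLIM1 and SDCBP have 4 and 3 named pseudogenes, and the counts cannot show how such reads were assigned.

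The lowest detected members were LIN7A, GRIP1, APBA1, PDZK1 and MAGI2, with mean levels of 0.00755, 0.0453, 0.101, 0.217 and 0.256 RPKM. LIN7A had a count of 1 without treatment, 0 with LPS alone, 1 with WT PDZ and 2 with mut PDZ and was the only member with 0 counts in a library. GRIP1, a scaffold best known from synapses, had 4 counts without treatment, 5 with LPS alone, 3 with WT PDZ and 9 with mut PDZ. PDZK1, a scaffold of transporters in kidney and liver, had 13 counts without treatment, 14 with LPS alone, 13 with WT PDZ and 6 with mut PDZ. LIN7A, GRIP1 and PDZK1 stayed below 16 normalized counts in every library and were left out of all comparisons. LIN7C, its relative, stood at 11.1 RPKM without treatment, 11.6 with LPS alone, 11.3 with WT PDZ and 11.8 with mut PDZ, and LIN7B stood at 1.12 RPKM without treatment, 1.32 with LPS alone, 1.02 with WT PDZ and 2.56 with mut PDZ.

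**Figure D1:**
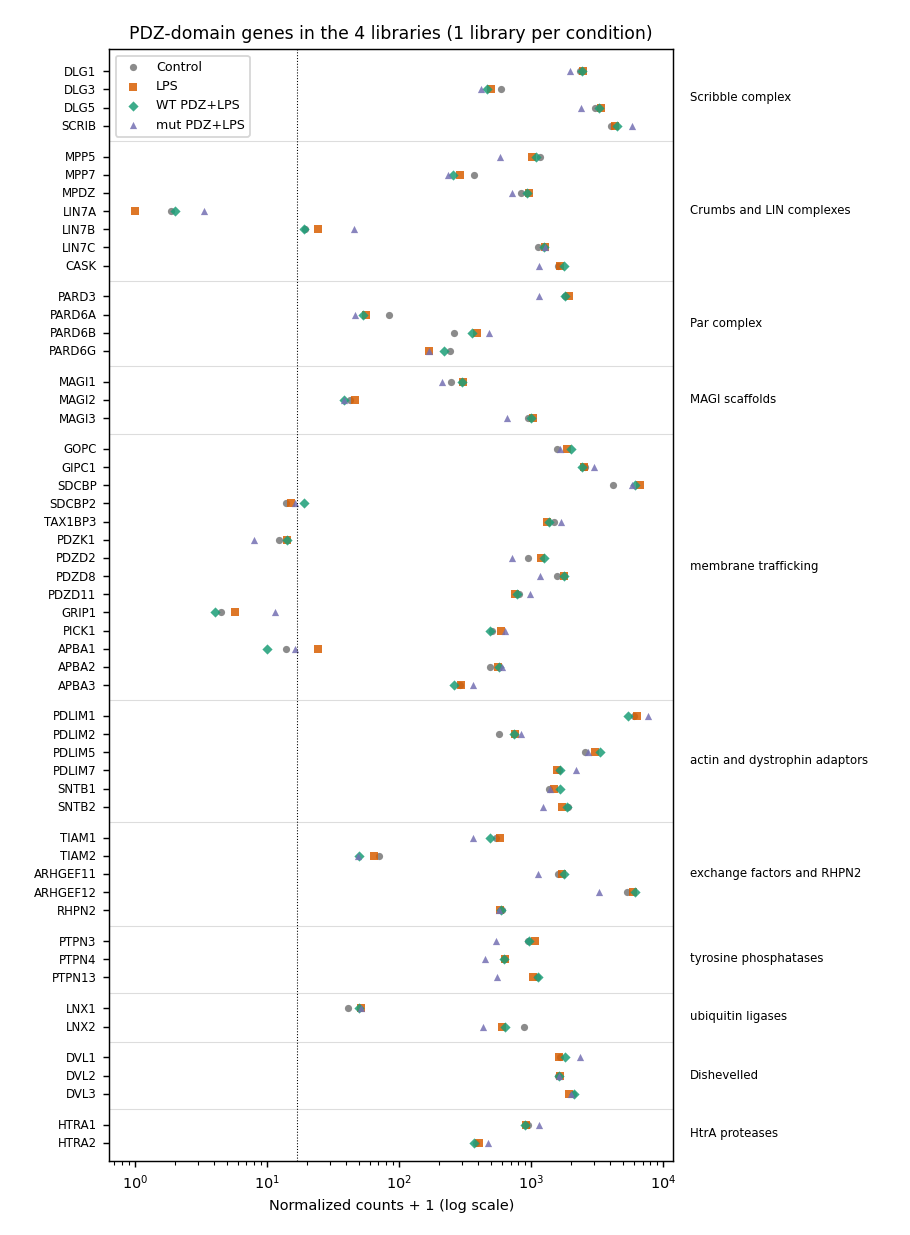
Normalized counts plus 1 (log scale) of each of the 53 PDZ-domain genes, grouped by role, with 1 symbol for each of the 4 libraries; the dotted line marks the level of 16 normalized counts. Most genes have 4 overlapping symbols within a narrow span, and the mut PDZ+LPS triangle most often stands apart.

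LPS for 2 hr left the PDZ genes close to their Control level, with SDCBP and the Par gene PARD6B the clearest members that were higher and the Par genes PARD6A and PARD6G and the ubiquitin ligase LNX2 the clearest that were lower. A gene was compared where it reached 16 normalized counts in at least 1 of the 2 libraries, which 49 members did. No member was 2-fold higher or lower, against 3.46% and 1.41% of the 13277 genes compared. At 1.5-fold, 3 members were higher, or 6.12%, against 6.71% of all genes, and 0 were lower, against 4.77%. PARD6B lay so near this threshold that 2 were higher under TMM scaling, a pseudocount of 5 or the correction for length and GC content. Under upper-quartile scaling 2 were higher and 3 lower, and under total-count scaling 1 was higher and 3 were lower. The members' median log2 fold change was 0.094, beside -0.0023 over all genes. Above 0 were 32 members (65.3%) and below 0 were 17 (34.7%), against 49.5% and 50.5% of all genes. Counting intervals of single members lay above 0 for 21, below 0 for 9 and around 0 for 19. Such intervals were not counted over all genes, here or in the comparisons below.

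SDCBP had 4169.7 normalized counts without treatment, 6697 with LPS alone, 6152 with WT PDZ and 5822 with mut PDZ. All 3 LPS-treated libraries lay above Control, and the log2 fold change in LPS/Control was 0.68 (0.63 to 0.74). PARD6B, which ties the kinase aPKC and the GTPase Cdc42 to the Par scaffold, had 258 normalized counts without treatment, 389 with LPS alone, 356 with WT PDZ and 482 with mut PDZ and a log2 fold change of 0.59 (0.37 to 0.81). Its relatives lay on the other side of Control. PARD6A had 82.7 normalized counts without treatment, 55.5 with LPS alone, 52.5 with WT PDZ and 45.8 with mut PDZ, with a log2 fold change of -0.57 (-1.07 to -0.091). For PARD6G the levels were 243 normalized counts without treatment, 167 with LPS alone, 217 with WT PDZ and 168 with mut PDZ, and the log2 fold change was -0.54 (-0.82 to -0.27). PARD6A and PARD6G were thus just short of a 1.5-fold difference, and the fourth Par gene, PARD3, the tight junction scaffold of the complex, was near its Control level at 0.12 (0.031 to 0.21). Under total-count scaling the log2 fold change of every gene in this comparison is shifted down, the median of all genes to -0.13.

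LNX2, a ring-finger ubiquitin ligase with several PDZ domains, had 882 normalized counts without treatment, 599 with LPS alone, 633 with WT PDZ and 434 with mut PDZ, so all 3 LPS-treated libraries were below Control, and its log2 fold change was -0.56 (-0.70 to -0.41). LNX1, its relative, which binds Numb, had 46 counts in Control and 54 in LPS, too few to place it, at 0.34 (-0.25 to 0.94). APBA1, an adaptor of the amyloid precursor protein, was also at least 1.5-fold higher with LPS, but on 15 counts without treatment, 25 with LPS alone, 9 with WT PDZ and 13 with mut PDZ. It passed the level rule only through the LPS library, and its counting interval in LPS/Control, -0.13 to 1.88, included 0.

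The remaining members moved less in LPS/Control. Among actin adaptors PDLIM2 was the furthest from Control, at 0.40 (0.25 to 0.55), and PDLIM5 was at 0.26 (0.19 to 0.33). The 4 Scribble complex genes, which hold the basolateral side, ran from -0.24 for DLG3 to 0.15 for DLG5, and the 3 Dishevelled genes from -0.12 for DVL3 to 0.055 for DVL2. The Crumbs-side scaffold MPP7 was at -0.33 (-0.55 to -0.12). Genes above 0 by less than the shift given for total-count scaling have no stable side in this comparison.

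Membrane ligands and other genes of the pathway were counted by the same rule. Of 36 ligands of PDZ domains 28 were compared, and 2 were at least 2-fold higher in LPS/Control and 0 lower, against 3.46% and 1.41% of all genes. SDC4, the syndecan whose tail binds syntenin, had by far the larger difference, with 6573 normalized counts without treatment, 100415 with LPS alone, 82491 with WT PDZ and 81545 with mut PDZ and a log2 fold change of 3.93 (3.90 to 3.97). The syndecans SDC1, SDC2 and SDC3 had log2 fold changes of -0.11, 0.058 and 0.088. The other ligand was FZD8, a Wnt receptor, with 8 counts in Control and 19 in LPS, so that it passed the level rule only through the library where it was high. Among 98 further PDZ-domain genes 65 were compared, of which 4 were at least 2-fold higher and 1 was lower, beside the same shares of all genes. CNKSR3, a scaffold of sodium channel regulation, was the best counted of these, with 324 normalized counts without treatment, 904 with LPS alone, 803 with WT PDZ and 877 with mut PDZ and 1.48 (1.31 to 1.66). TJP3, MAGIX and PDZD4 were higher and MAST1 lower on at most 60 counts each, and TJP3 and MAGIX passed the level rule only through the LPS library. None of 18 compared polarity partners without a PDZ domain was 2-fold different.

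**Figure D2:**
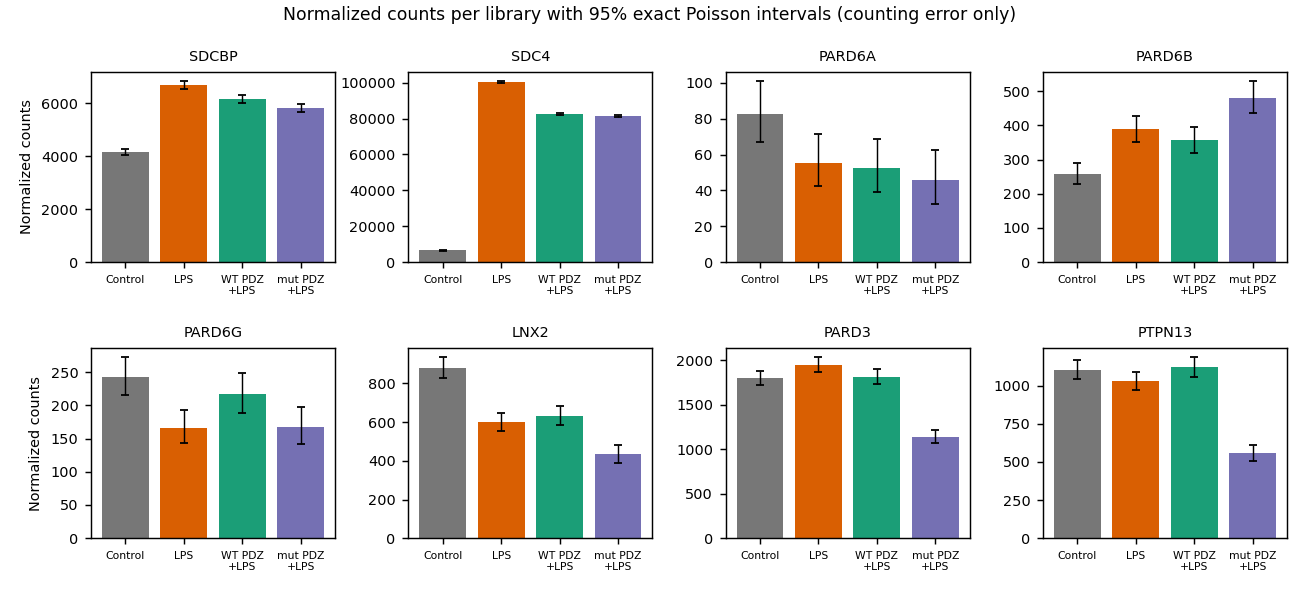
Normalized counts (linear axis from 0) of SDCBP, SDC4, PARD6A, PARD6B, PARD6G, LNX2, PARD3 and PTPN13 in the 4 libraries; bars are single libraries and error bars are 95% exact Poisson intervals for counting error. SDCBP and SDC4 stand above Control in all 3 LPS-treated libraries, LNX2 and PARD6A stand below it, and PARD3 and PTPN13 are lowest in mut PDZ+LPS.

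Cells given the WT PDZ peptide before LPS had PDZ gene levels within 1.5-fold of those with LPS alone, with the sparsely counted APBA1 as the exception. Of 50 members compared, 0 were 2-fold higher, against 0.635% of all genes, and 1, APBA1, was 2-fold lower, against 0.733%. At 1.5-fold there were 0 higher and the same 1 lower, against 2.15% and 2.16% of 13236 genes. The median was -0.023 beside 0.0076 for all genes, and 35 of the 50 counting intervals held 0, without a share over all genes to set beside them. APBA1 had 25 counts in LPS and 9 in WT PDZ+LPS, with a log2 fold change of -1.28 (-2.66 to -0.22). It passed the level rule only through the LPS library, whose count also entered its value in LPS/Control. The next members by size were TIAM2, a Rac activator with 68 and 48 counts, at -0.39 (-0.96 to 0.15), and PARD6G, at 0.38 (0.089 to 0.68). PARD6G stood at 217 normalized counts in WT PDZ+LPS, between its LPS and Control levels. Other members named for LPS were nearer to their LPS level, with SDCBP at -0.12 (-0.17 to -0.073), PARD6B at -0.13, LNX2 at 0.079 and PARD6A at -0.078. Of 64 further PDZ-domain genes compared, 0 were 2-fold higher and 1 was lower, TJP3, with 23 counts with LPS alone and 6 with WT PDZ, at -1.68 (-3.42 to -0.50). It passed the level rule only through the LPS library. Of the source of the peptide, TJP1, there were 4417 raw counts without treatment, 4592 with LPS alone, 4322 with WT PDZ and 2711 with mut PDZ. These are not divided by the size factors and do not compare levels between libraries. On normalized counts the log2 fold change of TJP1 in WT PDZ+LPS/LPS was 0.015 (-0.045 to 0.075).

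**Figure D3:**
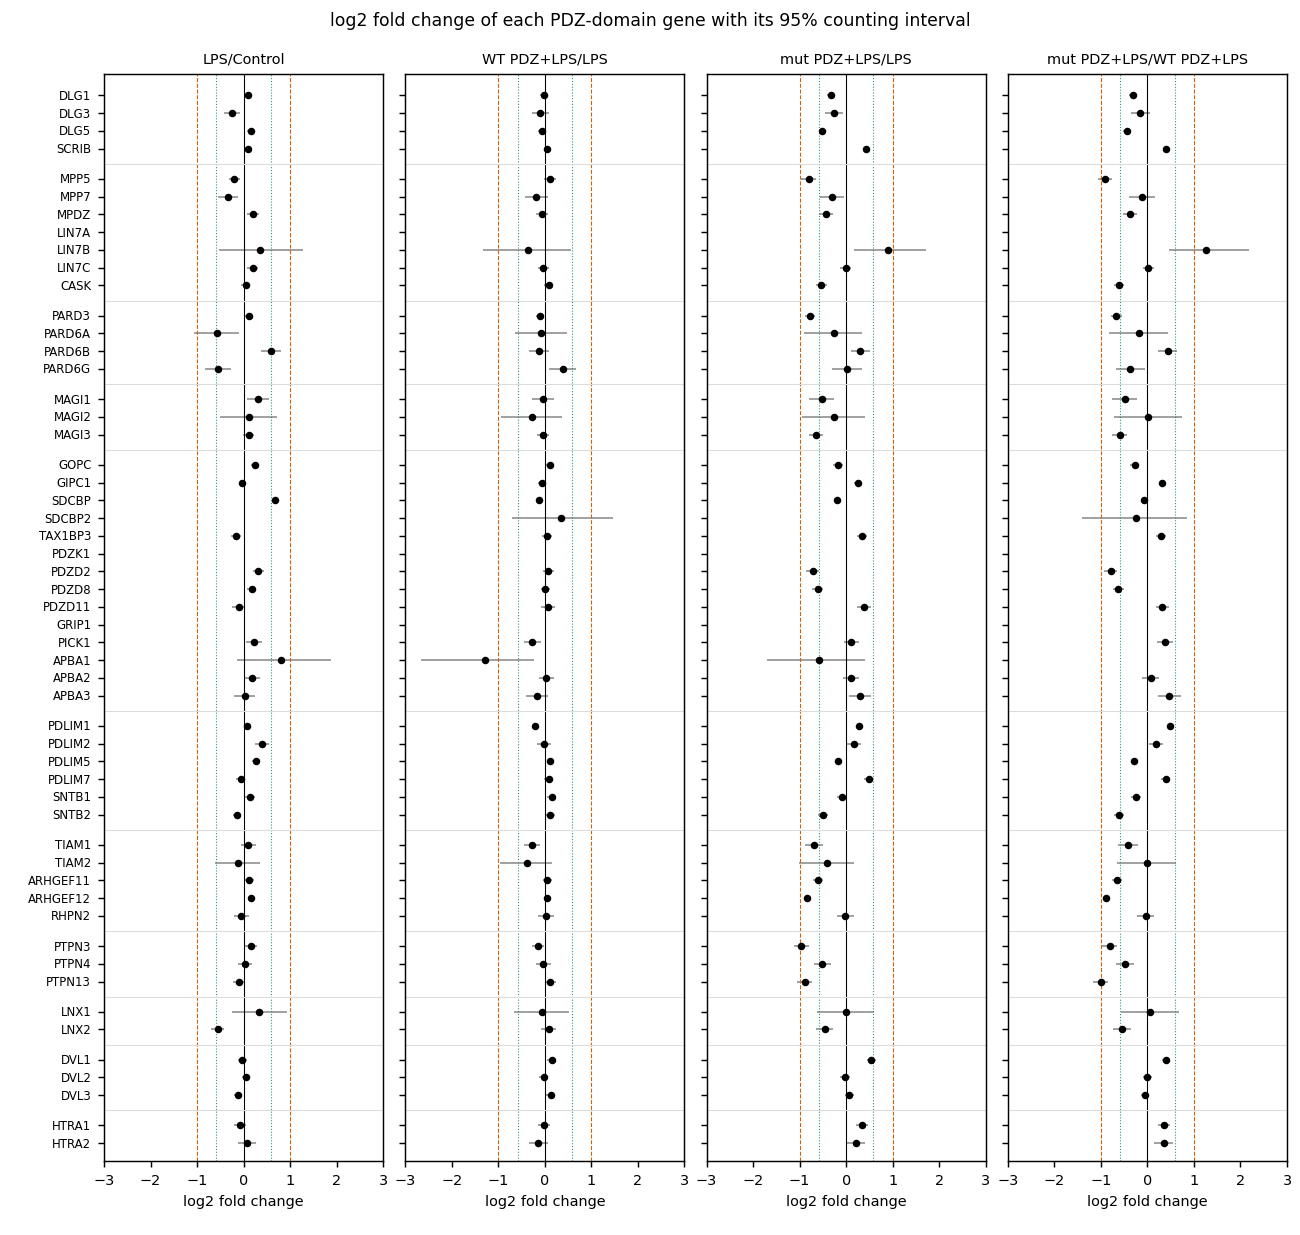
log2 fold change (points) of each PDZ-domain gene that passed the level rule, with its 95% counting interval (lines), in the 4 comparisons, 1 per panel; dotted and dashed lines mark 1.5-fold and 2-fold. The points of WT PDZ+LPS/LPS lie close to 0 except APBA1, while those of both mut PDZ comparisons are spread to both sides.

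In the mut PDZ+LPS library 11 PDZ genes with long transcripts were at least 1.5-fold lower than with LPS alone, and none of the 11 stayed so once the trends with length and GC content were taken off. Among them were 2 of 3 tyrosine phosphatases and the exchange factors ARHGEF11, ARHGEF12 and TIAM1. No member reached a 2-fold difference, against 2.05% of all genes higher and 1.9% lower. At 1.5-fold, 1 member was higher (2.04%, against 7.89% of 13378 genes) and 11 were lower (22.4%, against 9.8%). The median log2 fold change was -0.20 beside -0.017 for all genes. Above 0 were 17 members (34.7%) and below 0 were 32 (65.3%), against 48.5% and 51.5% of all genes. Counting intervals lay below 0 for 23 members and above 0 for 13, with no share over all genes counted.

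PTPN3, a phosphatase with a membrane-binding FERM domain, had 954 normalized counts without treatment, 1067 with LPS alone, 961 with WT PDZ and 546 with mut PDZ, and was at -0.96 (-1.12 to -0.81) on the log2 scale against LPS alone. PTPN13, a large phosphatase with several PDZ domains, whose loop is printed above, had 1104 normalized counts without treatment, 1029 with LPS alone, 1119.8 with WT PDZ and 556 with mut PDZ and -0.89 (-1.05 to -0.73). Only the mut PDZ+LPS library stood apart for these genes. PTPN13 shares exon bases with MAPK10 on the opposite strand, and whether counting used strand is not given in the sources used here. ARHGEF12, a guanine nucleotide exchange factor, was the best counted of the 11, with 5314 normalized counts without treatment, 5943 with LPS alone, 6122 with WT PDZ and 3298 with mut PDZ and -0.85 (-0.91 to -0.79). ARHGEF11, its close relative, had -0.61 (-0.72 to -0.49), and TIAM1, an activator of Rac, -0.69 (-0.89 to -0.49).

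Polarity scaffolds were among the 11 too. MPP5, known as PALS1 of the Crumbs complex, had 1167 normalized counts without treatment, 1015 with LPS alone, 1097 with WT PDZ and 580.4 with mut PDZ and a log2 fold change of -0.81 (-0.96 to -0.65). PARD3 had 1795 normalized counts without treatment, 1951 with LPS alone, 1814 with WT PDZ and 1141 with mut PDZ and -0.77 (-0.89 to -0.66), so it was lowest in mut PDZ+LPS. MAGI3, a junctional scaffold, had -0.64 (-0.79 to -0.49). PDZD2, a protein with many PDZ domains, had -0.71 (-0.86 to -0.57), and PDZD8, a lipid transfer protein of the endoplasmic reticulum, -0.61 (-0.73 to -0.50). The eleventh member was APBA1, at -0.59 (-1.71 to 0.40) on few counts. APBA1 again passed the level rule only through the LPS library. The 1 member at least 1.5-fold higher was LIN7B, with 25 counts in LPS and 38 in mut PDZ+LPS and a log2 fold change of 0.90 (0.16 to 1.71). It overlaps C19orf73 on the opposite strand.

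Other members did not reach 1.5-fold but had counting intervals below 0. PTPN4, the relative of PTPN3, was at -0.51 (-0.70 to -0.33), MAGI1 at -0.52 (-0.79 to -0.26) and DLG5 at -0.51 (-0.59 to -0.44). CASK, a scaffold that joins LIN7 to membrane proteins, was at -0.53 (-0.65 to -0.42) and MPDZ, the many-domain scaffold of tight junctions, at -0.43 (-0.58 to -0.29). LNX2, already below Control with LPS, was at -0.47 (-0.66 to -0.28). After correction these values shrank to -0.062 for PTPN4, -0.14 for MAGI1, -0.26 for DLG5, -0.10 for CASK, -0.031 for MPDZ and -0.25 for LNX2.

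Some members stood in the other direction before that correction. DVL1, a Dishevelled protein of Wnt signaling, had 0.54 (0.45 to 0.64) and PDLIM7 0.48 (0.38 to 0.58), while SCRIB, which keeps the basolateral side, had 4065 normalized counts without treatment, 4340.3 with LPS alone, 4459 with WT PDZ and 5855 with mut PDZ and 0.43 (0.37 to 0.49). Both HtrA proteases, which cut misfolded and matrix proteins, were above 0, at 0.33 for HTRA1 and 0.21 for HTRA2. After correction HTRA2 turned to -0.058 and PDLIM7 to -0.044, while HTRA1 was at 0.08, DVL1 at 0.19 and SCRIB at 0.28. HTRA2 shares exon bases with AUP1 and LOXL3 on the opposite strand. Such sharing holds for 18 of the 53 members, among them DVL1, HTRA1, GOPC, PDZD8, CASK, DLG1, DLG5 and LNX1, and is not noted at each.

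Transcript length moved with these differences. The 11 lower members had longest transcripts of 5552 to 11704 nucleotides, and the higher LIN7B one of 755 nucleotides. Among the 48 members whose mean reached 16 normalized counts, the median length was 5057 nucleotides, against 3479 over the 12109 genes of that level with a length. Spearman's rank correlation between length and this log2 fold change was -0.82 across the 48 members and -0.61 across the 12109 genes. With GC content it was 0.53 and 0.41. In WT PDZ+LPS/LPS the correlation with length was 0.13 and 0.075, and in LPS/Control 0.16 and 0.16. These are correlations across genes of the same libraries, and genes are not independent replicates. The 24 members over the median length had a median of -0.52, with 22 below 0, and the 24 at or under it a median of 0.14, with 9 below 0. The 2 members over the median length that were above 0 were SCRIB and DVL3, at 0.43 and 0.068, with lengths of 5218 and 5335 nucleotides.

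A smooth trend over length and then over GC content was fitted across all these genes and taken off. The members' median in mut PDZ+LPS/LPS was then -0.058 beside -0.035 for all genes, and none of the 11 members stayed 1.5-fold lower. Their corrected values ran from -0.53 to -0.14, with PTPN3 at -0.51, MPP5 at -0.53, PARD3 at -0.50 and ARHGEF12 at -0.37. At 1.5-fold after correction 0 members were higher, against 4.09% of all genes, and 1 was lower, against 4.01%. That 1 was PARD6A, a short transcript of 1260 nucleotides, whose value went from -0.27 to -0.88 on 59 and 39 counts. Spearman's rank correlation with length was -0.31 across the members after correction, against 0.0051 across all genes. The part of transcript length, library preparation and peptide in these differences cannot be told apart with 1 library.

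**Figure D4:**
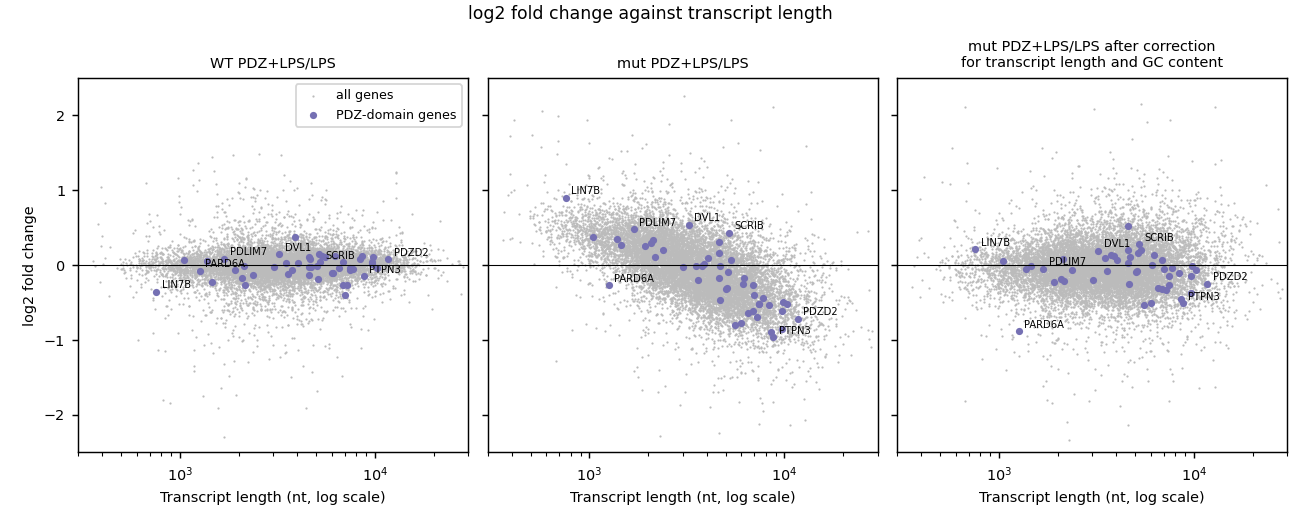
log2 fold change against the length of the longest protein-coding transcript (log scale) with WT PDZ against LPS alone, with mut PDZ against LPS alone, and for mut PDZ after correction for length and GC content; purple points are the 48 PDZ-domain genes and grey points all 12109 genes, of which a few lie outside the axis range. The members follow the downward band of all genes in mut PDZ+LPS/LPS, which is gone from all genes after correction.

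The 2 peptides differ in a pair of adjacent glycines, and their libraries were set directly against each other at the same times. This comparison shares the mut PDZ+LPS library with the one before it, so the values stand side by side and are not independent of each other. In mut PDZ+LPS/WT PDZ+LPS, 1 member was 2-fold higher, against 2.12% of all genes, and 1 was 2-fold lower, against 2.14%. The higher one was LIN7B, with 18 and 38 counts and a log2 fold change of 1.25 (0.45 to 2.19), and the lower one PTPN13, at -1.01 (-1.17 to -0.85). At 1.5-fold 1 was higher and 11 were lower, against 8.4% and 10.7% of 13372 genes. CASK and SNTB2, a syntrophin that binds dystrophin, were lower here by more than 1.5-fold, at -0.61 (-0.73 to -0.50) and -0.61 (-0.72 to -0.50). After correction for length and GC content the values were 0.57 for LIN7B, -0.54 for PTPN13, -0.16 for CASK and -0.088 for SNTB2. The members' median was -0.15, and -0.025 after correction, beside -0.032 for all genes. After correction 1 member was 1.5-fold higher, against 4.35% of all genes, and 2 were lower, against 4.13%. These were PARD6B, at 0.66, and MPP5 and PARD6A, at -0.62 and -0.81. Uncorrected, MPP5 was at -0.92 (-1.07 to -0.76). PARD6A was at -0.19 (-0.83 to 0.43) before correction, on 52 counts with WT PDZ and 39 with mut PDZ. PARD6B had 482 normalized counts with mut PDZ beside 356 with WT PDZ, and its uncorrected log2 fold change was 0.43 (0.23 to 0.64).

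Of the further PDZ-domain genes 43 of 65 were below 0 in mut PDZ+LPS/LPS, or 66.2%, beside 51.5% of all genes, with a median of -0.23 beside -0.017. After correction the medians were -0.031 and -0.035. TJP1 itself, the gene from which the peptides derive, was at -0.44 (-0.51 to -0.37) and at -0.017 after correction. Of the 65 further PDZ-domain genes 2 were at least 2-fold lower and 1 was higher, against 1.9% and 2.05% of all genes. The 2 lower ones were AHNAK and AHNAK2, giant scaffolds with a single PDZ domain. They were at -1.29 (-1.31 to -1.26) and -1.08 (-1.15 to -1.01), and at -0.71 and -0.66 after correction. GRIP2, the relative of GRIP1, was the 1 gene of this list at least 2-fold higher, with 10 and 17 counts, at 1.01 (-0.12 to 2.38), and passed the level rule only through the mut PDZ+LPS library. Of the polarity partners without a PDZ domain, AMOT, a junctional scaffold of the Hippo pathway, was 2-fold lower, with 74 counts in LPS and 20 in mut PDZ+LPS, at -1.53 (-2.36 to -0.84) and -1.14 after correction. Of 28 compared ligands 1 was 2-fold higher and 0 were lower. This was JAM3, a junctional adhesion molecule, with 41 and 67 counts, at 1.01 (0.45 to 1.63). With mut PDZ against WT PDZ, 2 of 63 further PDZ-domain genes were 2-fold higher and 1 was lower, against 2.12% and 2.14% of all genes. Of 18 polarity partners 2 were lower and 0 higher, and of 28 ligands 0 were 2-fold different. AHNAK and AMOT were again lower, at -1.25 (-1.28 to -1.23) and -1.55 (-2.38 to -0.85). So was VANGL2, a planar polarity protein, on 21 and 6 counts, at -1.46 (-3.19 to -0.23). DFNB31, a scaffold of sensory hair cells, was higher on 28 and 56 counts, at 1.19 (0.54 to 1.93), and GRIP2 on 8 and 17, at 1.21 (0.016 to 2.73). VANGL2 and GRIP2 reached the level rule in 1 of the 2 libraries only.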

How the data were processed

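RNA of 4 BEAS-2B cultures was analysed, 1 library per condition, grouped by the treatment in the labels. The submitters' processing notes name TopHat and the build hg19. According to the study's methods, poly(A) RNA was selected, made into directional libraries and sequenced in pairs, and reads were trimmed with FASTX_Trimmer and BBMap. The authors deposited raw counts per gene symbol, without normalization. The counting tool, annotation and strand setting are not given in the sources used here. The members and gene lists were chosen with earlier results of these data known.

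Counts were divided by geometric size factors (DESeq2 1.42.0 in R 4.3.3). Size factors were 1.15 for Control, 1.06 for LPS, 0.990 for WT PDZ+LPS and 0.851 for mut PDZ+LPS. Log2 fold changes used a pseudocount of 1 on normalized counts. A gene was compared if 1 of the 2 libraries reached 16 normalized counts (log2 of 4), and called at 2-fold. Named were members at 1.5-fold in any of 4 comparisons, the 5 highest and 5 lowest per length, those with a count of 0, list genes at 2-fold and TJP1. PARD6A, PARD6G, LNX2 and further members and syndecans given with values were chosen after their values were seen. Ratio intervals were exact (Clopper-Pearson, 95%). The length and GC trend was a lowess curve (span 0.3, 3 cycles, statsmodels 0.14.6) over 12109 genes, using the longest protein-coding GENCODE 29 transcript, found for all 53 members. The steps were tested on simulated data. Total-count, upper-quartile and TMM (edgeR 4.0.16) scaling, a pseudocount of 5, other level and fold rules, and a correction by median transcript length, added after the data were seen, were the alternatives. A few items are not reported here.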

Additional observations from a re-analysis of the deposited data

Results flagged for a closer look

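With 1 library per condition the difference between the effects of the 2 peptides was not tested. For 5 members the WT PDZ+LPS and mut PDZ+LPS libraries lay on opposite sides of the LPS library, each with a counting interval that left out 0. How many of all genes meet this rule was not counted, so whether 5 is many or few is not known. The log2 fold changes against LPS alone, with WT PDZ first and mut PDZ after it, were 0.10 and -0.17 for GOPC, which sorts membrane proteins at the Golgi. For PDLIM1 they were -0.22 and 0.27, and for its relative PDLIM5 0.12 and -0.17. SNTB2 had 0.12 and -0.50, and PTPN13 0.12 and -0.89. Corrected for transcript length and GC, the mut PDZ values were 0.033 for GOPC, -0.0045 for PDLIM1, 0.14 for PDLIM5, -0.017 for SNTB2 and -0.45 for PTPN13, so of these 5 only PTPN13 kept a value beyond 0.2 below 0. Both comparisons share the LPS library, and an LPS count that happened to be high or low moves both values the same way.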

How the results depend on the processing

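No paired analysis was possible because each condition had 1 library. The median of the PDZ genes kept its sign under every alternative except in LPS/Control, where total-count scaling turned it to -0.037 while moving the median of all genes to -0.13. Below, LPS means LPS/Control, WT the WT PDZ library against LPS alone, mut the mut PDZ library against LPS alone, and mut against WT the last comparison. Counts of members at the fold threshold changed as follows. At 1.5-fold they were 3 for LPS, 12 for mut and 12 for mut against WT, against 0, 0 and 2 at 2-fold. At 3-fold they were 0 for WT, against 1, and 0 for mut against WT. A level rule of 6 on the log2 scale left 0 for WT and 1 for mut against WT, and no level rule gave 1 for mut and 3 for mut against WT. For mut against WT total-count and upper-quartile scaling gave 1 each, and correction by the longest or the median transcript length gave 0 each. Lower by 1.5-fold for mut were 11 members as reported, 8 with total-count scaling, 7 with upper-quartile scaling, 1 with the correction (PARD6A, not among the 11) and 2 with the correction by median length. The stricter or looser rules change the counts by their own construction, and for the scalings and corrections the cause was not tested. Members with few counts, such as APBA1, LIN7B and PARD6A, have wide counting intervals, and spread between cultures is unknown.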
